A study of Mus musculus with 6 samples.

Results

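The genes described here are Srf, its muscle cofactor Myocd and 8 genes of the actin contractile apparatus: the actin genes Actc1, Acta1, Acta2 and Actb and the actin-associated genes Tagln, Cnn1, Myl9 and Flna. They were chosen by name, as a set of serum response factor (SRF) factors and targets, and all 10 were found among the 30323 gene IDs of the deposited table. The RNA came from whole mouse hearts at embryonic day 9.5, with 3 libraries of hearts labelled CDC-42 KO, a myocardial knockout of the small GTPase gene Cdc42 (MCKO), and 3 libraries of hearts labelled C57BL/6 ctrl. The labels do not state the Cre driver, the sex of the embryos or the strain of the MCKO embryos, and no other treatment is named for either group. Because whole hearts were sampled, cells other than muscle contribute RNA. A myocardial knockout is meant to spare these cells, but the labels do not show that it did. Fewer cells of a type cannot be told apart from less RNA per cell.

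SRF is a transcription factor that binds the CArG box, a short DNA element with CC and GG around a run of A and T. Its cofactors are of different kinds. Myocardin and the myocardin-related factors (MRTFs) drive contractile and cytoskeletal genes, and the ternary complex factors drive immediate early genes. Actin monomers hold MRTFs in the cytoplasm, so that actin polymerisation releases them to the nucleus, and actin genes are themselves SRF targets. Myocardin is made in heart and smooth muscle. In the early heart tube, cardiac muscle cells also transiently make smooth muscle proteins such as smooth muscle actin, transgelin and calponin.

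The promoter of each gene was read from the RefSeq promoter table (GRCm38.p6, 250 bases before to 50 bases after the annotated start), which had an entry for 7 of the 10 genes and none for Myocd, Actb and Tagln. The windows of Srf and of the 3 muscle actin genes are shown as examples. The window of Myl9 also holds CArG boxes and is not shown. Capitals mark each CArG box, including boxes in which 1 of the 6 middle letters is not A or T.
Srf, chr17:46556113-46556412, minus strand: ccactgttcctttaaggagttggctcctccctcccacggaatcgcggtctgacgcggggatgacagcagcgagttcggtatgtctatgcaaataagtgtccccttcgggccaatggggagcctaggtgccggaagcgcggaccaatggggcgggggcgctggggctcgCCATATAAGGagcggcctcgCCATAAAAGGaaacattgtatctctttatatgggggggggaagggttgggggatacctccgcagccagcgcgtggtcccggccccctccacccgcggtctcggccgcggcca
Actc1, chr2:114052826-114053125, minus strand: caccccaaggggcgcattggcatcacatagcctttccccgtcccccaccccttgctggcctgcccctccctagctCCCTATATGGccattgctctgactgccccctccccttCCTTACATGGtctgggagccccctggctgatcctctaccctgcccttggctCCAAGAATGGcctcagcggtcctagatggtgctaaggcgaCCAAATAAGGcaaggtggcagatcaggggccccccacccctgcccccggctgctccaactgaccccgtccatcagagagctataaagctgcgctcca
Acta1, chr8:123894726-123895025, minus strand: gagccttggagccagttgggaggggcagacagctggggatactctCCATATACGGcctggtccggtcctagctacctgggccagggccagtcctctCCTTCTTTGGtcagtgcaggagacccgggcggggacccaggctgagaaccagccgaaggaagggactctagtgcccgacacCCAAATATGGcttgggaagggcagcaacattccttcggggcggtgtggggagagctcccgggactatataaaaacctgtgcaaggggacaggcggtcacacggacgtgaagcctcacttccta
Acta2, chr19:34255324-34255623, minus strand: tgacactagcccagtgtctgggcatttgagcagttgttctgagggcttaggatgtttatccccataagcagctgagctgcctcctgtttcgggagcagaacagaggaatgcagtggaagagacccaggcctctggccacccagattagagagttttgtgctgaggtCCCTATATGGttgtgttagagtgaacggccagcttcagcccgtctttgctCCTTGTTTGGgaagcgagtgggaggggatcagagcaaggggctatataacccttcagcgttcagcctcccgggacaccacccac

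A CArG box with all 6 middle letters A or T was found in 4 of the 7 windows, those of Srf, Actc1, Acta1 and Myl9, against 1.63% of the 32851 mouse promoter windows in the table. The pattern reads the same on both strands. With 1 middle letter allowed off, 5 of the 7 windows held a box, Acta2 being added, against 9.98% of all windows. Srf had CCATATAAGG at -82 and CCATAAAAGG at -62, counted from the RefSeq start at 0 to the first base of the box. Acta1 had CCAAATATGG at -73 and Actc1 had CCAAATAAGG at -47. Both boxes of Acta2, CCCTATATGG at -84 and CCTTGTTTGG at -34, had 1 letter off, and the first of these was also found in Actc1 at -175. The windows of Cnn1 and Flna held no box of either kind. A match of letters is a description of the sequence and not evidence of binding.

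The libraries held 23883877 to 34246477 estimated counts in MCKO and 19256840 to 32169289 in control hearts. Levels are in CPM, that is, the counts of a gene scaled to the total of its library. A gene was called higher or lower at an adjusted p under 0.05 by edgeR over all 14697 tested genes. The targeted gene Cdc42 had 248, 241 and 238 CPM in MCKO replicates 1, 2 and 3, against 399, 377 and 424 CPM in control replicates 1, 2 and 3. Of 11 cardiac muscle markers 5 were higher and none lower in MCKO, and their summed level was 32545 to 33765 CPM in MCKO and 26652 to 29741 CPM in control libraries. Of 8 smooth muscle markers 2 were higher and 3 lower, with sums of 407 to 418 CPM in MCKO and 386 to 417 CPM in controls. These sums add opposite moves. Their largest part was Smtnl2, which was higher, at 241 ± 3.0 CPM in MCKO and 190 ± 4.2 CPM in controls (SD, n = 3 each). The 3 lower markers were Smtn (79.2 CPM in MCKO, 102 CPM in controls), Lmod1 (35.3 CPM in MCKO, 48.3 CPM in controls) and Mylk (9.42 CPM in MCKO, 15.1 CPM in controls). Endothelial markers summed to 1023 to 1053 CPM in MCKO and 876 to 886 CPM in controls (6 of 7 higher, 1 lower), and primitive red cell markers to 6374 to 6785 CPM in MCKO and 3035 to 3326 CPM in controls (6 of 6 higher). Epicardial markers summed to 72.5 to 74.6 CPM in MCKO and 166 to 173 CPM in controls (all 5 tested of 6 lower), and markers of mesenchyme and neural crest to 138 to 145 CPM in MCKO and 441 to 461 CPM in controls (6 of 8 lower). Endoderm markers summed to 16.3 to 17.7 CPM in MCKO and 15.4 to 16.9 CPM in controls, although 5 of the 6 were higher, such as Epcam (5.41 ± 0.41 CPM in MCKO and 0.898 ± 0.091 CPM in controls, SD, n = 3 each), and 1, Afp, was lower (0.100 ± 0.090 CPM in MCKO and 11.4 ± 0.90 CPM in controls). Of the endoderm markers, Foxa2, Shh and Sox2 had at most 0.373 CPM in any control library. They passed the filter on low counts only through the MCKO libraries, where they were higher. Afp, and Sox10 among the neural crest markers, passed it only through the control libraries, where they were higher. Calls of such genes could hardly have gone the other way. Skeletal muscle markers reached at most 0.209 CPM, with Myod1 at 0 in all libraries.

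The contractile genes moved in different directions in MCKO hearts while Srf and Myocd did not pass the test. By this test 7 of the 10 genes were called (70.0%), against 58.4% of all tested genes. Acta1, Actb, Cnn1 and Actc1 were higher in MCKO (4 of 10, against 29.3% of all tested genes) and Tagln, Acta2 and Flna were lower (3 of 10, against 29.1%). The share called was thus near that of all genes. For 9 of the 10 genes the CPM ranges of MCKO and control libraries were separate, against 65.5% of all tested genes. After scaling by the trimmed mean of M-values (TMM), which the test uses, 7 of the 10 were separate, against 64.7% of all tested genes, and the Myocd and Myl9 ranges overlapped as those of Srf did. The changes were mostly small. The median absolute log2 fold change of all tested genes was 0.31, 4 of the 10 genes exceeded it, and none changed by 2-fold or more, against 11% of all tested genes. The median signed log2 fold change of the 10 was -0.05, beside 0.00057 for all tested genes.

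**Figure D1:**
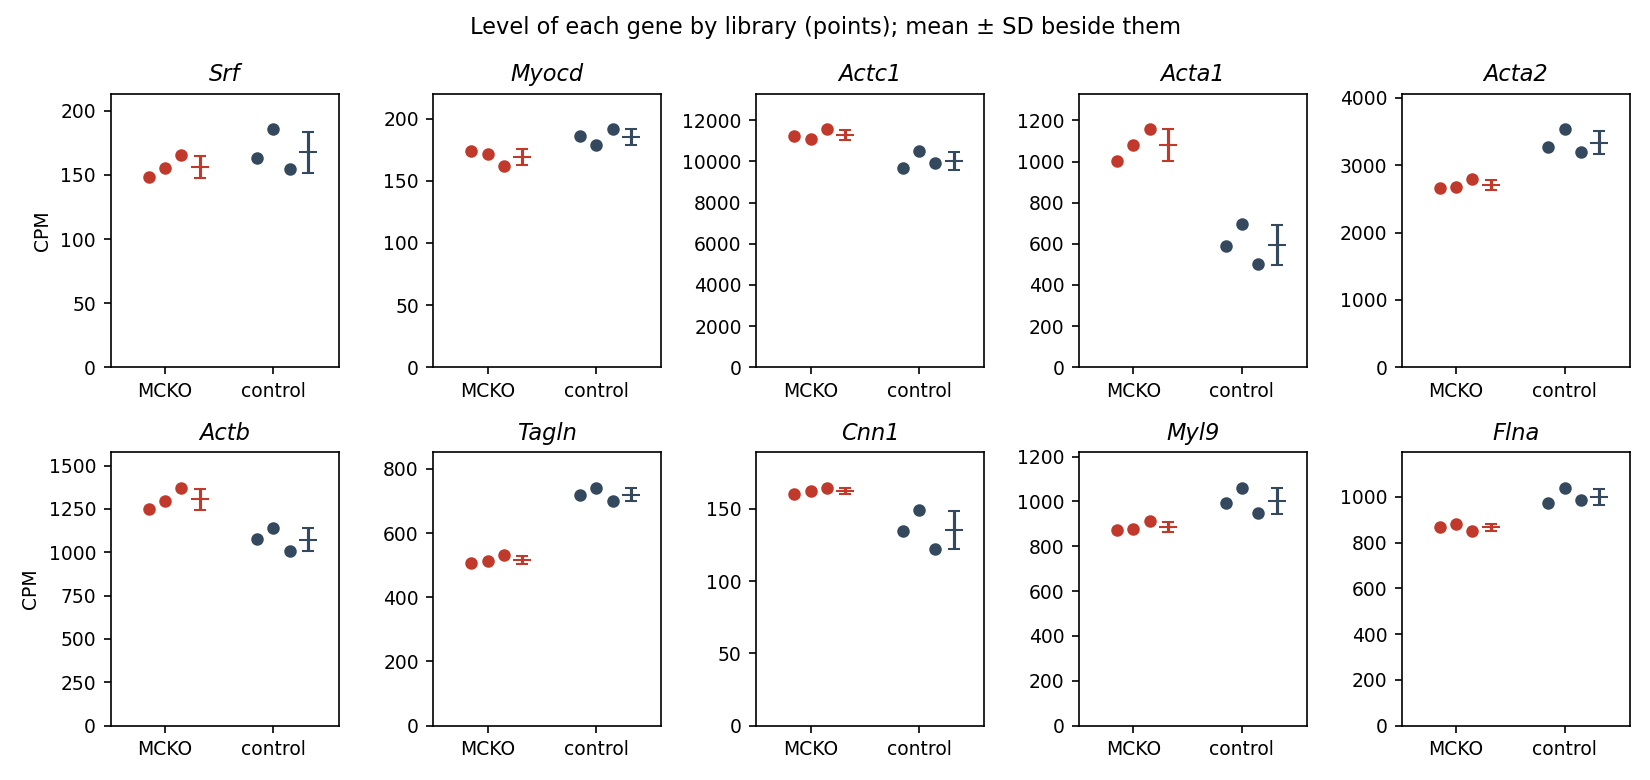
Level of the 10 genes in CPM (vertical axes, linear and starting at 0) in each library, with the mean and SD (n = 3) beside the points, MCKO in red and control in dark blue. Acta1 shows the widest gap relative to its level, with MCKO libraries between 1003 and 1157 CPM and control libraries between 501 and 695 CPM, and the Srf points of the groups overlap.

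Srf encodes the DNA-binding factor itself. It had 148, 156 and 165 CPM in MCKO replicates 1, 2 and 3, against 163, 186 and 154 CPM in control replicates 1, 2 and 3. The groups overlapped, and it had a log2 fold change of -0.04 (SE 0.074, 95% interval -0.21 to 0.13, edgeR adjusted p = 0.689). Changes of Srf within that interval remain compatible with these libraries.

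Myocd encodes myocardin, the SRF coactivator of cardiac and smooth muscle. It had 174, 171 and 162 CPM in MCKO replicates 1, 2 and 3, against 186, 179 and 191 CPM in control replicates 1, 2 and 3. On these CPM values each MCKO library was below each control library, but after TMM scaling the groups overlapped, with MCKO replicate 1 at 178 and control replicate 2 at 176. The difference did not pass the test, at a log2 fold change of -0.07 (SE 0.044, 95% interval -0.17 to 0.03, edgeR adjusted p = 0.185). With library totals as the only scaling the value was -0.13 and was called (edgeR adjusted p = 0.0304).

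Among the striated muscle actins, both genes were higher in MCKO. Acta1, the actin of adult skeletal muscle that is also made in the embryonic heart, had 1003, 1078 and 1157 CPM in MCKO replicates 1, 2 and 3, against 591, 695 and 501 CPM in control replicates 1, 2 and 3. The lowest MCKO library exceeded the highest control library, with a log2 fold change of 0.92 (SE 0.13, edgeR adjusted p = 0.000915), a 1.89-fold difference. Its absolute change exceeded that of 86.6% of all tested genes, whereas the other 9 genes exceeded 6.78 to 61.7%. The control libraries also differed among themselves more for Acta1 than for the other 9 genes, with a coefficient of variation of 16.2% (7.12% in MCKO). In the same hearts skeletal muscle markers were at or near 0.

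Actc1 encodes the main actin of cardiac muscle. It had 11212, 11102 and 11565 CPM in MCKO replicates 1, 2 and 3, against 9661, 10518 and 9931 CPM in control replicates 1, 2 and 3. The groups did not overlap, with a log2 fold change of 0.23 (SE 0.044, 95% interval 0.13 to 0.33, edgeR adjusted p = 0.00153). On plain CPM the mean level of Actc1 was 1.13-fold higher in MCKO, and that of the summed cardiac muscle markers 1.17-fold higher. The marker sum did not rise evenly, as 5 of the 11 were called higher and 6 were not called. Myh7 had 10131 ± 306 CPM in MCKO and 6332 ± 449 CPM in controls (SD, n = 3 each). Myl7 had 3768 ± 171 CPM in MCKO and 2689 ± 207 CPM in controls. Myh6, not called, went the other way, at 6980 ± 194 CPM in MCKO and 7623 ± 534 CPM in controls. The part of muscle content in the Actc1 and marker differences was not tested.

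Acta2 encodes smooth muscle actin, which early cardiac muscle also makes. In contrast to both striated actins it was lower, with 2660, 2677 and 2794 CPM in MCKO replicates 1, 2 and 3, against 3275, 3535 and 3200 CPM in control replicates 1, 2 and 3. The groups did not overlap, with a log2 fold change of -0.24 (SE 0.049, 95% interval -0.35 to -0.13, edgeR adjusted p = 0.00231). Actg2, the enteric smooth muscle actin, was near the bottom of the measured range, at 2.54, 2.45 and 2.18 CPM in MCKO replicates 1, 2 and 3 and 2.71, 2.91 and 2.55 CPM in control replicates 1, 2 and 3, and was not called (log2 fold change -0.12, SE 0.16, edgeR adjusted p = 0.567).

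Actb, the cytoplasmic beta-actin often used as a reference gene, was not constant between the groups. It had 1252, 1294 and 1372 CPM in MCKO replicates 1, 2 and 3, against 1077, 1137 and 1006 CPM in control replicates 1, 2 and 3. The groups did not overlap, with a log2 fold change of 0.34 (SE 0.057, edgeR adjusted p = 0.000641). Actg1, the cytoplasmic gamma-actin, was higher as well, with 1485, 1491 and 1544 CPM in MCKO replicates 1, 2 and 3 and 1339, 1464 and 1336 CPM in control replicates 1, 2 and 3 (log2 fold change 0.19, SE 0.048, edgeR adjusted p = 0.00772). Both values are less certain than those of the muscle actins. Of the stretches of 31 bases in their longest coding transcripts, 35.1% for Actb and 57.1% for Actg1 also occur in transcripts of other genes in GENCODE M21, against at most 4.45% for the other 9 of the 10 genes and 1.46% for Actg2. The gene sharing most with Actb was Lrrc58, at 22.7%, which had 198, 198 and 190 CPM in MCKO replicates 1, 2 and 3 and 136, 113 and 158 CPM in control replicates 1, 2 and 3. The retrocopy sharing most with Actg1, Gm12715, stayed under 1 CPM.

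The actin genes are similar to each other. The coding sequences of the 6 genes were 1128 to 1134 bases long and 81.5 to 88.7% identical in pairs. Actb and Actg1 were the most alike at 88.7%, followed by Actc1 and Acta1 at 86.2%, while Actc1 and Acta2 were 82.5% identical.

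The mix of actin transcripts differed between the groups. When counts were divided by the length of the longest coding transcript, Actc1 took most of the summed level of the 6 actin genes, at 69.0, 68.3 and 68.1% in MCKO replicates 1, 2 and 3 and 66.7, 66.7 and 68.3% in control replicates 1, 2 and 3, and these ranges overlapped. Acta2 took 11.9 ± 0.034% of this level in MCKO and 16.2 ± 0.23% in control hearts (SD, n = 3 each). Acta1 took 6.66 ± 0.33% in MCKO and 4.05 ± 0.50% in controls, Actb 6.07 ± 0.15% in MCKO and 5.52 ± 0.20% in controls, and Actg1 6.89 ± 0.031% in MCKO and 6.97 ± 0.040% in controls. Without length scaling the difference for Actg1 was reversed, at 0.020 percentage points, so its share has no fixed direction. The ranges of Acta2, Acta1, Actb, Actg1 and Actg2 did not overlap between the groups. Those of Actg1 lay close together, at 6.86 to 6.92% in MCKO and 6.93 to 7.01% in controls. Per length, Acta2 stood at 0.172 to 0.175 of the Actc1 level in MCKO libraries and at 0.233 to 0.245 in control libraries, and Acta1 at 0.0912 to 0.102 of it in MCKO and at 0.0514 to 0.0673 in controls. The summed level was 11027 to 11532 CPM per kilobase in MCKO and 9826 to 10703 CPM per kilobase in controls. No test was run on these shares.

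**Figure D2:**
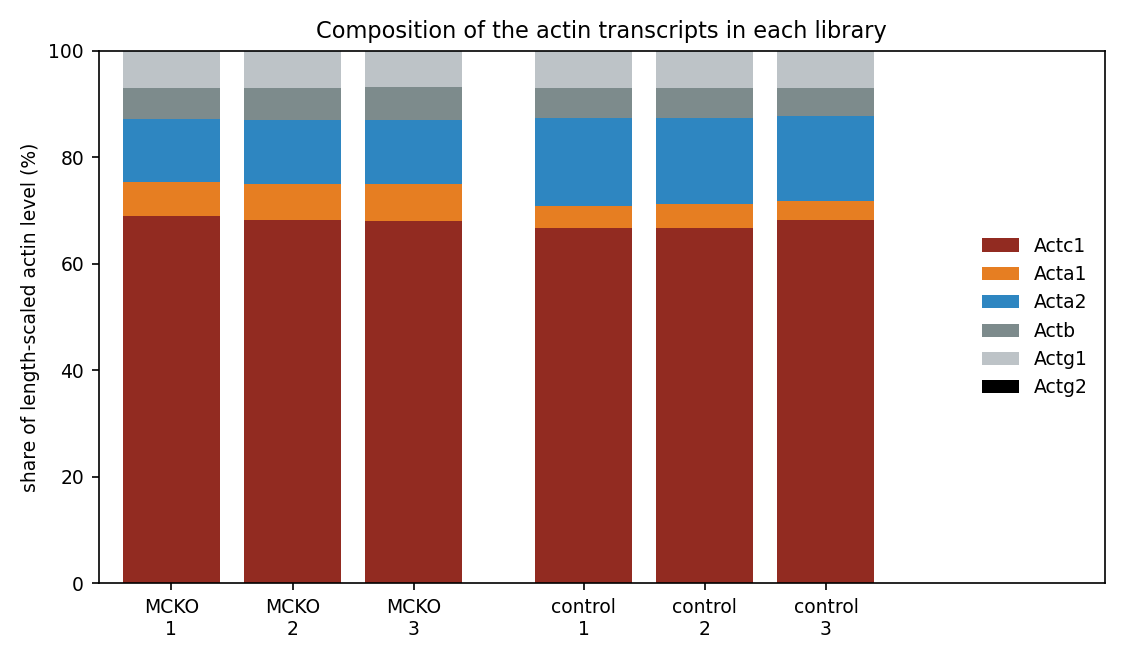
Share of each actin gene (percent, vertical axis) in the length-scaled level summed over 6 actin genes, 1 bar for each library, MCKO bars left and control bars right. The Acta2 segment is 11.9% in MCKO and 16.2% in controls on average, the Acta1 segment 6.66% in MCKO and 4.05% in controls, and Actg2 is too small to be seen.

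Of the smooth muscle proteins that bind or move actin, Tagln and Cnn1 changed in opposite directions. Tagln encodes transgelin, an actin-binding protein of the calponin family. It had 508, 512 and 531 CPM in MCKO replicates 1, 2 and 3, against 719, 742 and 699 CPM in control replicates 1, 2 and 3. The highest MCKO library lay well below the lowest control library, with a log2 fold change of -0.42 (SE 0.042, edgeR adjusted p = 2.89e-05), the lowest of the 10. Its exons overlap 1241 of 1988 bases with Gm48529, annotated on the opposite strand and not analysed here. The kit keeps strand, but the sources do not say whether the quantification used it.

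Cnn1 encodes calponin 1, an actin-binding regulator of smooth muscle contraction. It had 160, 162 and 165 CPM in MCKO replicates 1, 2 and 3, against 135, 149 and 122 CPM in control replicates 1, 2 and 3. The groups did not overlap, with a log2 fold change of 0.33 (SE 0.068, edgeR adjusted p = 0.00284). Its libraries were close together in MCKO (coefficient of variation 1.39%) and further apart in controls (9.88%).

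Myl9 encodes a regulatory light chain of smooth muscle and non-muscle myosin. It had 871, 877 and 911 CPM in MCKO replicates 1, 2 and 3, against 993, 1061 and 948 CPM in control replicates 1, 2 and 3. On these CPM values each MCKO library was below each control library, but after TMM scaling MCKO replicate 3, at 935, stood above control replicate 3, at 925. The test did not call the gene, at a log2 fold change of -0.11 (SE 0.050, edgeR adjusted p = 0.0778). It was called lower without control replicate 3 (-0.15, edgeR adjusted p = 0.00904), with upper quartile scaling (adjusted p = 0.0496) and with library totals only (adjusted p = 0.0105).

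Flna encodes filamin A, which crosslinks actin filaments and ties them to the membrane. It had 869, 881 and 850 CPM in MCKO replicates 1, 2 and 3, against 972, 1040 and 985 CPM in control replicates 1, 2 and 3. The groups did not overlap, and it was lower by a log2 fold change of -0.14 (SE 0.041, edgeR adjusted p = 0.0136). The call was lost without MCKO replicate 1 (edgeR adjusted p = 0.0506) and without MCKO replicate 3 (edgeR adjusted p = 0.0588). Flna lies on the X chromosome. The summed level of 4 Y-linked genes was 119 to 135 CPM in MCKO and 127 to 154 CPM in controls, so the groups overlapped in it. Of the 4, Kdm5d was lower in MCKO (log2 fold change -0.24, SE 0.074, edgeR adjusted p = 0.0181) and 3 were not called. The part of embryo sex in the Flna value was not tested.

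**Figure D3:**
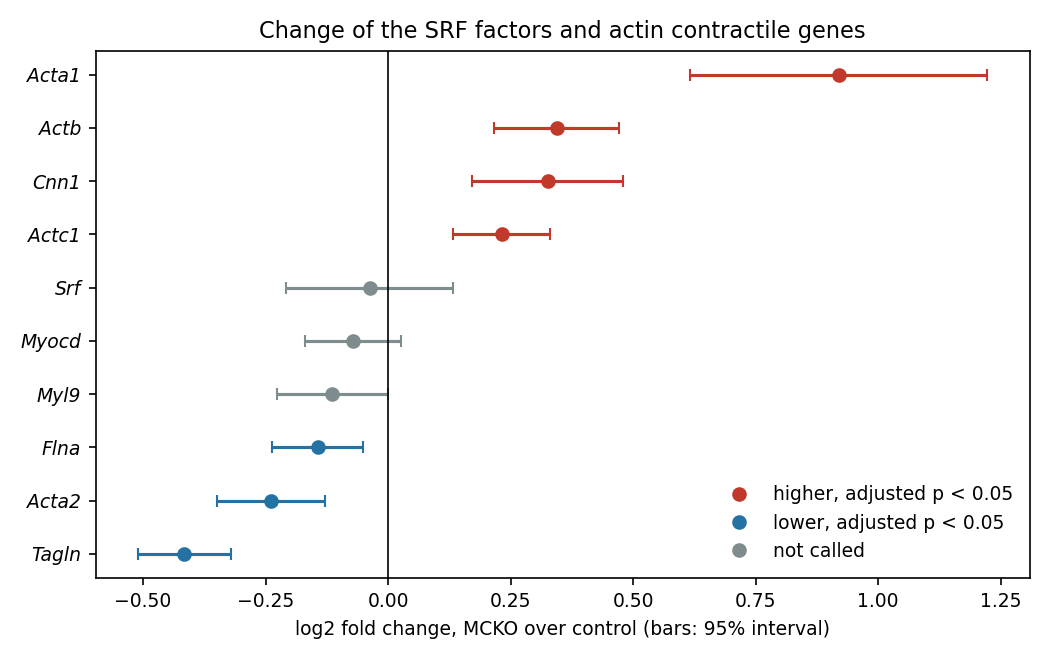
Log2 fold change of each of the 10 genes, MCKO over control (horizontal axis), with 95% intervals from the edgeR fit, sorted by value. Acta1 stands at 0.92 and Tagln at -0.42 at the ends, and Srf, Myocd and Myl9, in grey, were not called.

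The libraries of a group kept much the same order over these genes. Control replicate 2 was the highest control for 9 of the 10 genes, Myocd being the exception, and control replicate 3 the lowest for 7. MCKO replicate 3 was the highest MCKO library for 8 and MCKO replicate 1 the lowest for 7. Without control replicate 2 the same number of genes, 7, was called, 4 higher and 3 lower. The 10 values of a library therefore do not count as independent measurements.

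All 5 tested epicardial markers and 6 of 8 markers of mesenchyme and neural crest were lower in MCKO, against 29.1% of all tested genes. Of 11 cardiac muscle markers 5 were higher and 6 were not called (45.5% called, against 58.4% of all tested genes). Acta2, Tagln and Flna, which were lower, and Myl9, which was not called, are made in smooth muscle and mesenchyme as well as in early heart muscle. Cnn1, likewise made in smooth muscle and early heart muscle, was higher in MCKO (log2 fold change 0.33). The part of these cells in the values of these genes was not tested.

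Ranked by level per length (CPM per kilobase of the longest coding transcript), Actc1 was first and Acta2 the second of the 10 in both groups. Actc1 had 7667 ± 164 CPM per kilobase in MCKO and 6814 ± 298 in controls, and Acta2 1332 ± 36 in MCKO and 1640 ± 86 in controls (SD, n = 3 each). Myl9 was the next, at 785 ± 19 CPM per kilobase in MCKO and 887 ± 50 in controls. Acta1 was the fourth in MCKO, at 747 ± 53 CPM per kilobase, and the sixth in controls, at 412 ± 67. In MCKO its range overlapped those of its neighbours Myl9 and Actb (680 ± 32 CPM per kilobase). In controls it overlapped that of Tagln, which stood at 324 ± 7.8 CPM per kilobase in MCKO and 451 ± 13 in controls. Flna followed with 102 ± 1.9 CPM per kilobase in MCKO and 118 ± 4.3 in controls. Cnn1 stood above Srf in MCKO: Cnn1 had 68.2 ± 0.95 CPM per kilobase in MCKO and 56.9 ± 5.6 in controls, and Srf 59.8 ± 3.3 in MCKO and 64.1 ± 6.2 in controls, where the ranges of these genes overlapped. Myocd was the last of the 10, at 33.1 ± 1.3 CPM per kilobase in MCKO and 36.3 ± 1.3 in controls.

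Most factors that work with SRF were not called. Of 10 cofactors and modulators, 2 were higher and 1 lower (30.0% called, against 58.4% of all tested genes), with a median log2 fold change of 0.03. Mical2, an enzyme that oxidises nuclear actin and favours MRTF activity, had 711, 694 and 683 CPM in MCKO replicates 1, 2 and 3 and 562, 561 and 567 CPM in control replicates 1, 2 and 3 (log2 fold change 0.37, SE 0.036, edgeR adjusted p = 2.28e-05). Elk3, a ternary complex factor, was higher by 0.25 (SE 0.045, edgeR adjusted p = 0.00129). Hopx, a homeodomain protein that restrains SRF in the heart, was lower, with 66.5, 73.4 and 71.1 CPM in MCKO replicates 1, 2 and 3 and 102, 111 and 92.9 CPM in control replicates 1, 2 and 3 (log2 fold change -0.48, SE 0.071, edgeR adjusted p = 0.000364). The MRTF genes, named after their values were seen, were not called, with Mrtfa at 0.14 (SE 0.095, edgeR adjusted p = 0.23) and Mrtfb at 0.12 (SE 0.056, edgeR adjusted p = 0.105).

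Other contractile and cytoskeletal SRF targets went both ways, as the 10 genes did. Of 30, 12 were higher and 6 lower (60.0% called, against 58.4% of all tested genes), with a median log2 fold change of -0.01. Nexn, an actin-binding protein of the Z-disc, had 292, 294 and 287 CPM in MCKO replicates 1, 2 and 3, against 177, 174 and 196 CPM in control replicates 1, 2 and 3 (log2 fold change 0.73, SE 0.049, edgeR adjusted p = 1.94e-06). Pdlim5, a Z-disc scaffold, was higher by 0.58 (SE 0.059, edgeR adjusted p = 3.01e-05) and Tgfb1i1, an adaptor of focal adhesions, by 0.57 (SE 0.059, edgeR adjusted p = 3.4e-05). Synpo2, an actin-bundling protein of smooth and striated muscle, fell most on the list, with 85.6, 83.6 and 78.0 CPM in MCKO replicates 1, 2 and 3, against 177, 179 and 180 CPM in control replicates 1, 2 and 3 (log2 fold change -1.05, SE 0.044, edgeR adjusted p = 1.14e-07). The 8 smooth muscle markers, all named here after their values were seen, also went both ways. The kinase gene Mylk (-0.61, SE 0.084), the leiomodin gene Lmod1 (-0.39, SE 0.050) and the smoothelin gene Smtn (-0.30, SE 0.079) were lower, with edgeR adjusted p of 0.000204, 0.000136 and 0.00951. The smoothelin-like gene Smtnl2 (0.41, SE 0.039) and the potassium channel subunit gene Kcnmb1 (0.18, SE 0.055) were higher, with edgeR adjusted p of 1.97e-05 and 0.0195. Actg2, given above, and Ppp1r14a (0.41, SE 0.23, edgeR adjusted p = 0.159), an inhibitor of myosin phosphatase, were not called. The smooth muscle myosin gene Myh11 was not called either (-0.03, SE 0.10, edgeR adjusted p = 0.834), at 6.09 ± 0.14 CPM in MCKO and 6.50 ± 0.55 CPM in controls.

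Immediate early SRF targets, which the ternary complex factors serve, were higher in MCKO in 9 of 10 cases, and none was lower (90.0% called, against 58.4% of all tested genes). Their median log2 fold change was 1.59, beside -0.05 for the 10 genes. Among them Egr2, Egr3 and Fosb were near the bottom of the measured range. Egr2 had 0.860 CPM in MCKO and 0.171 CPM in controls, and Egr3 0.475 CPM in MCKO and 0.190 CPM in controls. Fosb had 1.66 CPM in MCKO and 0.330 CPM in controls. These genes passed the filter on low counts only because of the MCKO libraries, where they were higher. Their calls could hardly have gone the other way, and the share and median include them. Fos, a subunit of the transcription factor AP-1, had 19.3, 20.4 and 18.5 CPM in MCKO replicates 1, 2 and 3, against 5.11, 5.5 and 4.63 CPM in control replicates 1, 2 and 3 (log2 fold change 2.0, SE 0.091, edgeR adjusted p = 1.79e-07). The zinc finger factor gene Egr1 had 22.2, 21.7 and 21.7 CPM in MCKO replicates 1, 2 and 3, against 9.34, 8.05 and 8.92 CPM in control replicates 1, 2 and 3 (log2 fold change 1.38, SE 0.073, edgeR adjusted p = 4.82e-07). The antiproliferative gene Btg2 was higher by 1.46 (SE 0.056, edgeR adjusted p = 6.65e-08) and the nuclear receptor gene Nr4a1 by 1.72 (SE 0.066, edgeR adjusted p = 6.45e-08). The member not called, named after its value was seen, was Mcl1, an inhibitor of cell death. This list is short and was written with earlier results of these data known, so its share is a description and not a test.

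**Figure D4:**
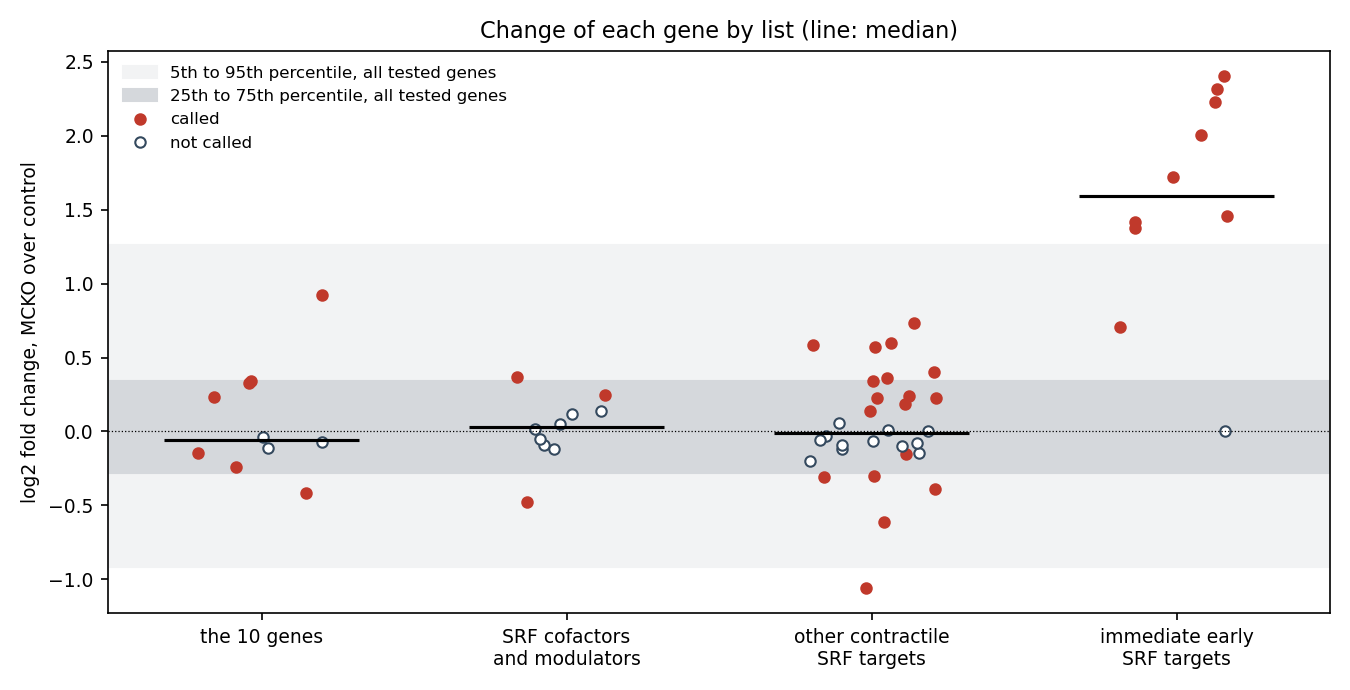
Log2 fold change, MCKO over control (vertical axis), of each tested gene in the 10 described here and in 3 lists of SRF pathway genes, with called genes filled and a line at each list's median. Shaded bands show the middle range of all tested genes, and only the immediate early targets have a median, 1.59, above the 95th percentile of all tested genes, 1.26. That median includes Egr2, Egr3 and Fosb, which were near the bottom of the measured range.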

How the data were processed

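RNA of 3 MCKO and 3 control heart libraries was measured by RNA sequencing, with a stranded TruSeq mRNA kit per the labels' protocols. The authors deposited whole-number estimated counts for each Ensembl gene, scaled neither for depth nor for length. The submitters' processing notes name kallisto and mm10 without version or role, and the transcript set is not given in the sources used here. Such estimates share out reads that match several transcripts, so similar genes are less certain.

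Columns were matched to samples by title, the knockout columns leaving out the M of MCKO. Of 30323 gene IDs, 29857 matched a symbol. Counts were tested with edgeR 4.0.16 in R 4.3.3 (filterByExpr, TMM, robust quasi-likelihood fit, group as the only term, two-sided, Benjamini-Hochberg adjustment over 14697 genes). The fit was also tried on simulated counts with far fewer changed genes than were called here. That trial therefore does not show the error rate in these data. The series' design text speaks of 3 hearts in each set, but no label ties a library to a heart or litter, so p-values measure only the spread between these libraries, which may be technical. Chi-square statistics per degree of freedom ranged over 3.58 to 15.4 for libraries of the same group and 90.7 to 144 for those of different groups, and all 6 libraries were kept. The labels give no batch.

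The 10 genes, the lists, and the tests were chosen with earlier results of these data known. From each pathway list up to 4 called genes with the smallest p were named, beside the 10 genes, the 6 actin genes and Cdc42. The results of 1 list are not reported here. Lengths, exons and coding sequences came from GENCODE M21 on GRCm38, which is mm10. The longest coding transcript was used as gene length. The plan named the median, which short fragments of actin transcripts make too small, and it is given as an alternative. The planned protein comparison was made on coding sequences, aligned with Biopython 1.88. Alternatives were other scalings and filters, DESeq2 1.42.0, a replicate block and leaving out each library.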

Additional observations from a re-analysis of the deposited data

How the results depend on the processing

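Of the 28 genes that the naming rule took, under 16 alternatives each, none changed direction while called, 1 lost its call and 2 gained one. Flna lost it without MCKO replicate 1, without MCKO replicate 3 and at a threshold of 0.01. Myl9 was called lower in 3 settings and Myocd in 1, as given beside them. Srf ran from -0.10 to 0.04 on the log2 scale and was called in none. With library totals only, 5 of the 10 genes were called lower in place of 3; the cause was not tested. That scaling moved the median of all genes to -0.07. Leaving out 1 library in turn gave 6 to 8 called of the 10 genes and 7452 to 8695 of all genes. DESeq2 called 7 of the 10 and 7894 genes. With the replicate block, 7 of the 10 genes and 7765 of all genes were called. Deviations of same-numbered libraries correlated at -0.16, 0.05 and -0.32, and 0 of 6 libraries correlated best with their own number, so the numbers were not taken as pairs. The difference in the Acta2 share of the actin level, MCKO minus control, was -4.29 percentage points, -3.73 with median transcript lengths and -5.17 without length scaling, and that of Actg1, at -0.081, was reversed to 0.020 without length scaling.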
